A study of Homo sapiens with 3 samples.

Results

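The genes described here handle vitamin A and its hormone, retinoic acid, in PC3-Luc cells, a human prostate cancer line, of which 3 derived lines were compared. They were chosen by symbol and comprise the nuclear receptors RXRA, RXRB, RARA and RARG, the carriers RBP4 and CRABP2, the enzymes ALDH1A3 and DHRS3, and the retinol uptake receptor STRA6. Of these 9 genes, 8 had a row among the 21726 genes of the count table, and STRA6 was not analysed here. All 8 were among the 9556 genes that met the count minimum, which asked for counts summed per line to average at least 20 over the 3 lines. RBP4 met it only through the hairpin lines. RXRA and RBP4 owe their place to earlier results of these data, in which they stood higher in both hairpin lines, so their changes are given below as a description with no test.

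The lines carry the hairpin sh718 against CTHRC1, the hairpin sh720 against CTHRC1, or a control hairpin (shCtrl). CTHRC1 encodes a secreted matrix glycoprotein, and the series concerns its part in the spread of prostate cancer to bone. PC3 is a prostatic adenocarcinoma line that grows without androgen, and all 3 lines are labelled as transfected with pMSCV-luc, a luciferase vector, and were cultured for 24 h before RNA was taken. Each line has 3 numbered libraries, and GEO lists 1 sample per line. The sources used here do not describe the hairpin vectors, whether a line is a clone or a pool, or whether its libraries came from separate cultures. A p-value below therefore rests on the spread among libraries of a line, and that spread may be only technical.

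Library totals ran from 883663 to 1108960 counts, so 1 CPM stood for 0.849 to 1.08 counts. CPM values are counts scaled to the library size, here the counts in the genes tested after TMM scaling. Mitochondrial transcripts took 12.7% to 15.2% of the counts in sh718, 12% to 15.1% in sh720 and 14.4% to 16.4% in control. CTHRC1 had 2.36, 2.02 and 1.06 CPM in the sh718 libraries, 18.5, 19.8 and 9.7 CPM in sh720, and 99.1, 132 and 117 CPM in control. No hairpin library came near a control library in CTHRC1, and sh718 lay below sh720. The keratin genes KRT8 and KRT18 and the mesenchymal marker VIM were expressed in all lines and rose in sh720 (log2 0.46, 0.22 and 0.31, edgeR adjusted p 0.000707, 0.0316 and 9.76e-05). They were uncalled in sh718, at -0.03, 0.14 and 0.07, and KLK3 was not analysed. EPCAM, an epithelial adhesion molecule, fell in sh718 by 1.39 on the log2 scale (adjusted p 2.41e-05), with 40 counts in sh718, 120 in sh720 and 108 in control. The part of these markers in the results below was not tested. CDH1 had 1, 8 and 6 counts in sh718, sh720 and control. Of 15 markers of other cells, 6 had a row and only PECAM1 met the count minimum. Their summed level was 51.9 to 57.7 CPM in sh718, 20.5 to 33.3 CPM in sh720 and 25.9 to 29.3 CPM in control, mostly PECAM1, which rose in sh718 (log2 1.03, edgeR adjusted p 0.000263), and its part in the results below was not tested. PTPRC, the leukocyte marker, had 2, 4 and 0 counts. Within lines, sh718 library 2 differed most from its fellows, with a chi-square per degree of freedom of 2.40 and 2.34 against libraries 1 and 3, which differed by 1.31 from each other.

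As background, retinol travels in blood bound to retinol-binding protein, RBP4, and enters cells through STRA6. Inside the cell, retinol dehydrogenases such as RDH10 oxidise it to retinaldehyde, which DHRS3 can reduce back to retinol. ALDH1A enzymes, ALDH1A3 among them, turn retinaldehyde into retinoic acid in a step that is not reversed. CRABP2 carries retinoic acid to the nucleus, where a retinoic acid receptor (RAR) paired with a retinoid X receptor (RXR) binds DNA and switches target genes on or off. RXR also pairs with other nuclear receptors, such as PPARG, the thyroid hormone receptors and the vitamin D receptor. In epithelia, the prostate among them, retinoic acid is known for its role in differentiation.

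The promoter windows of RXRA, RBP4 and CRABP2 are shown because these members had no library of either hairpin line below the highest control library. Each runs from 250 bases before a RefSeq transcript start to 50 bases from it on (GRCh38.p14), written 5′ to 3′ on the gene's strand. RXRA is on the plus strand and the others on the minus strand, and 2 windows that do not overlap are given for RBP4. Capitals mark matches to the receptor binding hexamer AGGTCA, to its variant GGGTCA, to the related hexamer AGTTCA or to its own variant GGTTCA, searched on both strands.
RXRA chr9:134326205-134326504: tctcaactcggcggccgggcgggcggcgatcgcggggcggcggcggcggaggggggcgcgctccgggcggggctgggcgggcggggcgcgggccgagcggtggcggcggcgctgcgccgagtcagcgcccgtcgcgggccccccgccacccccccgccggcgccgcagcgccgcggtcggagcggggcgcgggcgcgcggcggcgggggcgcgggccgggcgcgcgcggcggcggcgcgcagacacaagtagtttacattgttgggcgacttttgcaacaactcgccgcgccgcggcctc
RBP4 chr10:93601695-93601994: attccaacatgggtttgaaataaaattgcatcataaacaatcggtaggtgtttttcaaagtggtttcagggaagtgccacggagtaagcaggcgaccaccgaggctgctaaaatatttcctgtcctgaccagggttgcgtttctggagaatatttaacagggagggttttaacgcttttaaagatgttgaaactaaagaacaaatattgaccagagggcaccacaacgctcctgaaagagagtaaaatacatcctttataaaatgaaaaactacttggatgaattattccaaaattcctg
RBP4 chr10:93601186-93601485: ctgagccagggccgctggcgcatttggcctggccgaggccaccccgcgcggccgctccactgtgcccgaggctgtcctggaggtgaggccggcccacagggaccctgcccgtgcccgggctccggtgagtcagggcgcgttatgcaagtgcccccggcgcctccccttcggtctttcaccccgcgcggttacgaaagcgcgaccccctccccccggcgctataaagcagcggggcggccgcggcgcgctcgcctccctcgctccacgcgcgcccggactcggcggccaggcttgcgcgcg
CRABP2 chr1:156705735-156706034: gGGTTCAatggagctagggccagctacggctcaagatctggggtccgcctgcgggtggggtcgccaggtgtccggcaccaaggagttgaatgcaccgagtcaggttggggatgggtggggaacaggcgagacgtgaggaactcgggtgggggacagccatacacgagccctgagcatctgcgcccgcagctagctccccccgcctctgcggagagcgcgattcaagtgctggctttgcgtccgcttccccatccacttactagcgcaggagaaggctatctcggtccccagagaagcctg
The windows of RXRA and RBP4 printed above hold no such hexamer. A further RefSeq window of RXRA, chr9:134379045-134379344, which is not printed, holds GGGTCA from position -236 to -231. The window of CRABP2 holds GGTTCA from position -249 to -244 relative to the start. RefSeq gave 21 windows for the 9 genes, of which 7 (33.3%) held at least 1 hexamer, against 38.6% of all 35116 windows. Direct repeats of the hexamers with 1, 2 or 5 bases between them, the classical arrangements for RXR and RAR pairs, were in none of the 21 windows. They were in 0.131%, 0.0399% and 0.0883% of all windows. The windows differ in composition, with 84% G and C in that of RXRA, 39% and 76% in those of RBP4 and 64% in that of CRABP2. A match describes letters only, and an absent one says nothing of binding elsewhere.

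RXRA (ENSG00000186350, GRCh38 chromosome 9, 134317098 to 134440585, plus strand), the shared partner of many nuclear receptors, stood higher in both hairpin lines. It had 23.6, 36.3 and 27.6 CPM in the sh718 libraries, 37, 27 and 31 CPM in sh720, and 13.5, 11.3 and 9.25 CPM in control. The lowest hairpin library lay above the highest control library, and the hairpin lines overlapped each other. The counts behind these values were small, with 82 in sh718, 94 in sh720 and 32 in control. In bulk libraries a level per cell and the share of cells that express a gene cannot be told apart. The fitted level was 2.6 times that of control in sh718 (95% interval 1.74 to 3.9) and 2.81 times in sh720 (1.89 to 4.15). The log2 difference of sh718 from sh720 was -0.11 (SE 0.23, 95% interval -0.56 to 0.35).

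RXRB (ENSG00000204231, chromosome 6, 33193588 to 33200688, minus strand), the second RXR measured, behaved otherwise. It had 40.1, 32.2 and 39.2 CPM in sh718, 25.7, 27 and 23.3 CPM in sh720, and 28.2, 30.4 and 30.5 CPM in control. Each sh718 library lay above the control libraries and each sh720 library below them, but neither difference passed the test. On the log2 scale RXRB lay 0.31 above control in sh718 (SE 0.21), with an edgeR adjusted p of 0.32. In sh720 the change was -0.23 (SE 0.23), with an adjusted p of 0.649. Between the hairpin lines it was 0.55 (SE 0.22, adjusted p 0.0568), and 0.65 (adjusted p 0.0439) without sh718 library 2. The 5′ end of RXRB overlaps SLC39A7, a zinc transporter gene on the other strand, which had 161, 103 and 138 counts in sh718, sh720 and control. SLC39A7 was itself higher in sh718 than in sh720, with a log2 difference of 0.73 (SE 0.18) and an edgeR adjusted p of 0.00149. The strand setting of the counting is not stated, so reads of this overlap cannot be told apart.

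**Figure D1:**
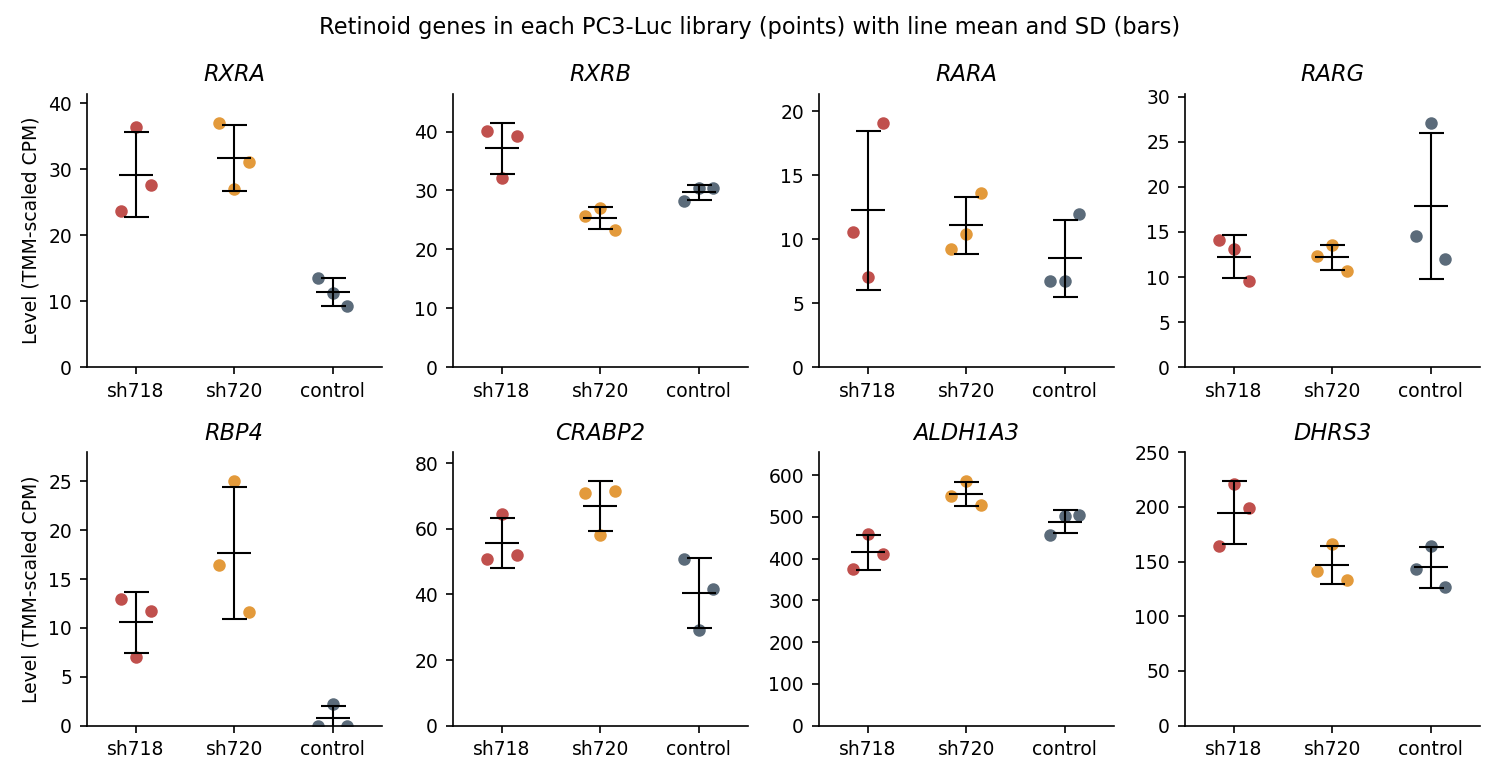
Level of each of the 8 retinoid genes in TMM-scaled CPM (vertical axes, linear, each starting at 0) in the sh718, sh720 and control lines. Circles are libraries, and the long tick and bar are the mean and SD of 3 libraries, cut at 0 for RBP4 in control; RXRA and RBP4 show hairpin libraries that all lie above the control libraries.

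RXRA and RXRB together had 66.3 ± 2.47 CPM in sh718, 57 ± 4.9 CPM in sh720 and 41.1 ± 1.1 CPM in control (SD, n = 3 libraries each). Of the counts of the pair, RXRA took 82 of 185 in sh718 (44.3%, exact Clopper-Pearson 95% interval 37% to 51.8%), 94 of 169 in sh720 (55.6%, 47.8% to 63.2%) and 32 of 117 in control (27.4%, 19.5% to 36.4%). By library the RXRA share was 37%, 52.9% and 41.3% in sh718, 59%, 50% and 57.1% in sh720, and 32.4%, 27% and 23.3% in control. No hairpin library reached down to the control libraries. These intervals, and all others on counts, cover counting error only, and the share carries no test because RXRA was picked for its change.

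RARA (ENSG00000131759, chromosome 17, 40309192 to 40357643, plus strand) and RARG (ENSG00000172819, chromosome 12, 53210567 to 53232980, minus strand), which bind retinoic acid itself, were low and showed no change past the test. RARA had 10.6, 7.05 and 19.1 CPM in sh718, 9.25, 10.4 and 13.6 CPM in sh720, and 6.76, 6.77 and 12 CPM in control. The RARA libraries of the 3 lines overlapped throughout. Its log2 change was 0.48 in sh718 (95% interval -0.30 to 1.25, edgeR adjusted p 0.428) and 0.34 in sh720 (-0.44 to 1.13, adjusted p 0.712).

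RARG had 14.1, 13.1 and 9.54 CPM in sh718, 12.3, 13.5 and 10.7 CPM in sh720, and 14.6, 27.1 and 12 CPM in control. Its control mean rests on library 2, the highest of the 9. The log2 change was -0.52 in sh718 (95% interval -1.18 to 0.14, edgeR adjusted p 0.285) and -0.53 in sh720 (-1.18 to 0.12, adjusted p 0.401). Without control library 2 the fitted changes were -0.11 in sh718 and -0.12 in sh720. The 9 libraries held 92 counts of RARA and 120 of RARG, and at this depth every interval against control covered changes of either sign. RARA took 50% of the counts of the RARA and RARG pair in sh718, 47.8% in sh720 and 33.3% in control. An exact two-sided permutation test over the libraries gave p 0.4 for sh718 and 0.3 for sh720 against control (0.4 for both after Benjamini-Hochberg adjustment over the 2 tests), where 3 libraries against 3 cannot go below 0.1.

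**Figure D2:**
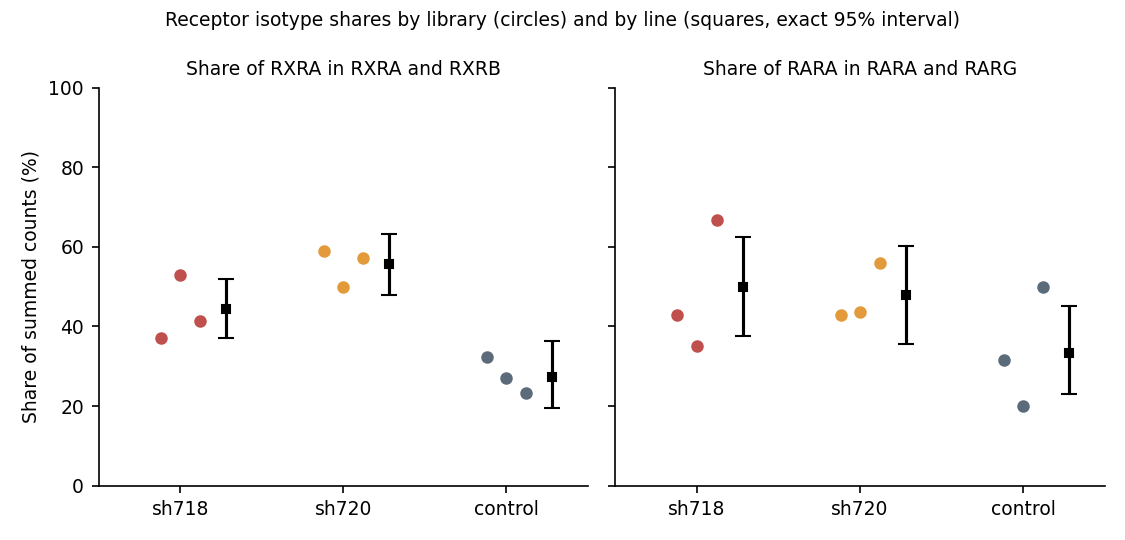
Share of RXRA in the summed counts of RXRA and RXRB (left panel) and of RARA in those of RARA and RARG (right panel), in percent from 0 to 100, for the sh718, sh720 and control lines. Circles are libraries and squares the 3 libraries summed, with the exact 95% interval; for RXRA the squares stand at 44.3%, 55.6% and 27.4%.

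RBP4 (ENSG00000138207, chromosome 10, 93591687 to 93601744, minus strand), the secreted retinol carrier, had next to no counts in control and was detected in every hairpin library. The counts were 11, 7 and 11 in the sh718 libraries, 16, 24 and 12 in sh720, and 0, 2 and 0 in control. As levels these are 13, 7.05 and 11.7 CPM in sh718, 16.4, 25 and 11.6 CPM in sh720, and 0, 2.26 and 0 CPM in control. The control counts came from library 2 alone. Scaled for depth, the summed counts stood at 14.9 times control in sh718 (exact 95% counting interval 3.76 to 129) and 25 times in sh720 (6.59 to 212). The ratio of sh718 to sh720 was 0.594 (0.364 to 0.953), while the libraries of these lines overlapped. FFAR4, a fatty acid receptor gene that overlaps RBP4 on the other strand, had 0 counts in sh718, 1 in sh720 and 4 in control, all in sh720 library 2 and control library 3.

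CRABP2 (ENSG00000143320, chromosome 1, 156699606 to 156705816, minus strand), the carrier that delivers retinoic acid to its nuclear receptors, rose in sh720. It had 50.7, 64.5 and 51.9 CPM in sh718, 70.9, 58.2 and 71.7 CPM in sh720, and 50.7, 29.3 and 41.6 CPM in control. The sh720 libraries lay above all control libraries, while the lowest sh718 library and the highest control library stood at the same value to 3 digits. The rise in sh720 was 0.72 on the log2 scale (SE 0.17), with an edgeR adjusted p of 0.00322. In sh718 CRABP2 lay 0.46 above control (SE 0.18), with an adjusted p of 0.0644. The sh720 call was lost in DESeq2 (adjusted p 0.0534) and without control library 2, the lowest control (log2 0.55, adjusted p 0.0703). In sh718 CRABP2 passed only without control library 1 (log2 0.63, adjusted p 0.0267). The hairpin lines differed by -0.26 (sh718 against sh720, SE 0.16, 95% interval -0.59 to 0.07, adjusted p 0.256).

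ALDH1A3 (ENSG00000184254, chromosome 15, 100877714 to 100916626, plus strand), which makes retinoic acid from retinaldehyde, was the most abundant member per length and was lower in sh718 than in sh720. It had 376, 459 and 410 CPM in sh718, 549, 585 and 528 CPM in sh720, and 457, 503 and 505 CPM in control. All sh718 libraries lay below all sh720 libraries. The control libraries lay below every sh720 library and overlapped the sh718 range. The log2 difference of sh718 from sh720 was -0.41 (SE 0.08, edgeR adjusted p 2.67e-05, DESeq2 adjusted p 0.000492). Against control its log2 change in sh718 was -0.23 (SE 0.08), which passed with an adjusted p of 0.0275. In sh720 it lay at 0.18 (SE 0.08), with an adjusted p of 0.162. The fall in sh718 was not called by DESeq2 (adjusted p 0.124), nor without sh718 library 1 (0.161) or 3 (0.0819), nor without control library 2 (0.0935) or 3 (0.118).

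DHRS3 (ENSG00000162496, chromosome 1, 12567910 to 12617731, minus strand), which returns retinaldehyde to retinol and is itself induced by retinoic acid, rose in sh718. It had 164, 221 and 199 CPM in sh718, 141, 166 and 133 CPM in sh720, and 143, 164 and 127 CPM in control. The lowest sh718 library was level with the highest control library, and sh720 and control overlapped throughout. Its rise in sh718 was 0.44 on the log2 scale (SE 0.12, edgeR adjusted p 0.00299, DESeq2 adjusted p 0.0343), or 0.35 without control library 3 (adjusted p 0.0531). In sh720 it was 0.03 (SE 0.12, 95% interval -0.21 to 0.27, adjusted p 0.937). The difference between sh718 and sh720 was 0.42 (SE 0.11, adjusted p 0.00416), or 0.32 without sh718 library 2, the highest (adjusted p 0.0612). In sh718 ALDH1A3 was called lower and DHRS3 higher by edgeR, where 20.4% of all genes tested were called, and in sh720 neither was called against control. The ALDH1A3 call was lost in DESeq2 (adjusted p 0.124). Retinoic acid was not measured, and what the 2 calls mean for its level was not tested.

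**Figure D3:**
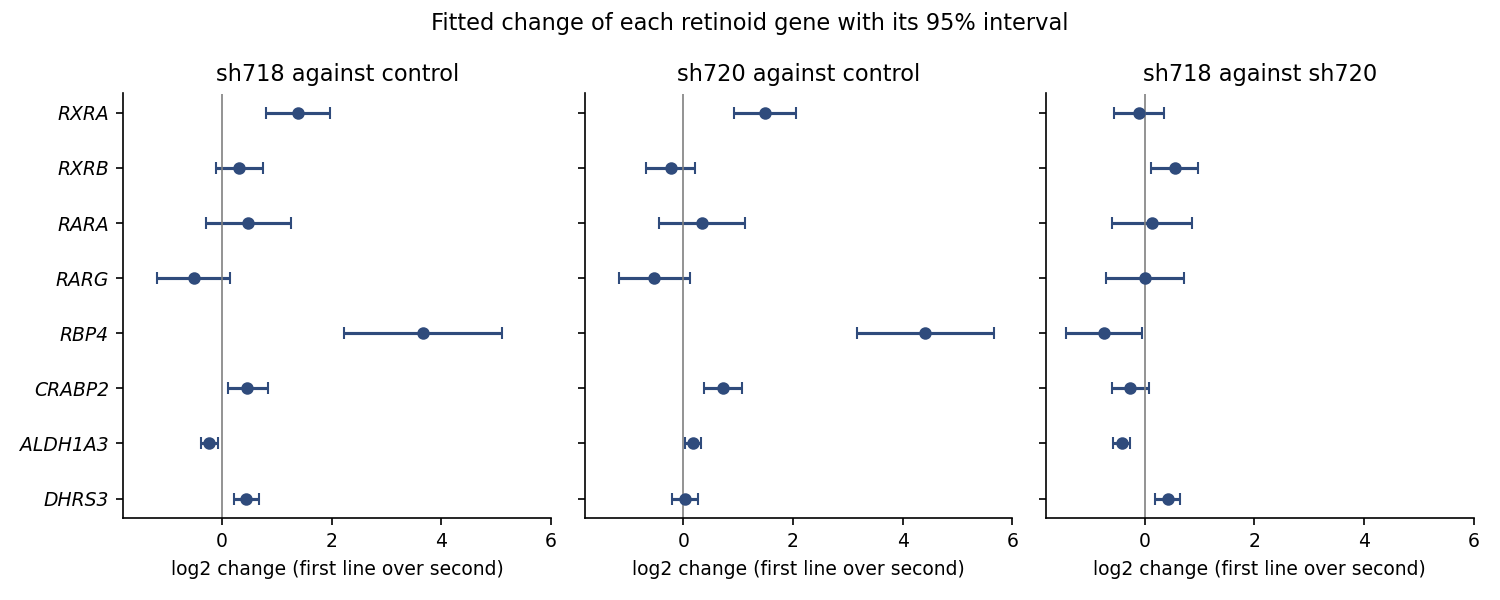
Fitted log2 change of each of the 8 genes with its 95% interval (horizontal axis, first line over second) for each hairpin line against control (left and middle) and for sh718 against sh720 (right). RXRA stands at 1.38 and 1.49 against control, ALDH1A3 and DHRS3 lie on opposite sides of 0 in sh718 against sh720, and the intervals of RARA and RARG cross 0 in all panels.

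Leaving out RXRA and RBP4, which carry no test, 6 members could be read against an edgeR adjusted p under 0.05. In sh718, 2 were called (DHRS3 higher, ALDH1A3 lower), beside 20.4% of all genes tested, 9.56% higher and 10.8% lower. In sh720, 1 was called (CRABP2, higher), beside 6.85% of all genes, 3.43% higher and 3.42% lower. Between the hairpin lines 2 were called (DHRS3 higher and ALDH1A3 lower in sh718), beside 25.3% of all genes, 12.3% higher and 13% lower. DESeq2 called 1 in sh718, 0 in sh720, where CRABP2 had an adjusted p of 0.0534, and 2 between the lines, beside 10.5%, 3.12% and 13.5% of all genes. The members were put together with such results known, so nothing is read from these counts. The comparisons with control share its libraries.

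Per kilobase of merged annotated exons, the members fell into an abundant and a scarce class in every line. ALDH1A3 had 71.9 ± 7.28 CPM per kb in sh718, 96 ± 5 in sh720 and 84.6 ± 4.69 in control (SD, n = 3). DHRS3 had 64.1 ± 9.46, 48.3 ± 5.77 and 47.6 ± 6.07 CPM per kb in sh718, sh720 and control, and CRABP2 had 50.6 ± 6.94, 60.9 ± 6.88 and 36.9 ± 9.74. The ranges of DHRS3 and CRABP2 overlapped in all 3 lines, and those of ALDH1A3 and DHRS3 in sh718. RXRB followed at 9.48 ± 1.09, 6.46 ± 0.486 and 7.58 ± 0.344 CPM per kb.

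RBP4 changed its place in this order. In control RBP4 was last at 0.519 ± 0.899 CPM per kb, overlapping RXRA at 1.02 ± 0.192. In sh718 it stood at 7.29 ± 2.14 CPM per kb, overlapping RXRB, and in sh720 at 12.2 ± 4.66, above RXRB in every library. RXRA reached 2.63 ± 0.586 CPM per kb in sh718 and 2.86 ± 0.452 in sh720, overlapping RARA in sh718 and RARG in sh720. These levels assume reads spread along whole transcripts, which the labels do not state, and the merged exons of RXRA, at 11.1 kb, exceed those of any other member.

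Other genes of retinoid handling came from lists of 112 genes, of which 88 had a row and 50 met the count minimum. Of these 50, 9 rose and 4 fell in sh718, 3 rose and none fell in sh720, and between the hairpin lines 10 were higher and 11 lower in sh718. As shares these are 26%, 6% and 42%, beside 20.4%, 6.85% and 25.3% of all genes tested. The median log2 change of the 50 genes was 0.04 in sh718, 0.01 in sh720 and -0.01 between the lines, and that of all genes lay within 0.00237 of 0.

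Among other retinoid enzymes, 7 of 28 were tested, and RDH10, which makes the first and limiting oxidation of retinol, rose in sh720. RDH10 had 113, 145 and 127 CPM in sh718, 186, 239 and 197 CPM in sh720, and 116, 121 and 112 CPM in control. The sh720 libraries stood apart from all others. The rise in sh720 was 0.84 on the log2 scale (SE 0.12), with an edgeR adjusted p of 8.39e-08. In sh718 RDH10 lay at 0.15 (SE 0.13), with an adjusted p of 0.425. The direct difference of sh718 from sh720 was -0.68 (SE 0.11), with an adjusted p of 2.35e-06. Tested genes within 5 Mb of RDH10 (14 genes) had a median of -0.20 in sh718, 0.14 in sh720 and -0.41 between the hairpin lines. Of these neighbours, 42.9% were called lower in sh718 than in sh720, beside 13% of all genes tested. The part of that neighbourhood in the result was not tested. RETSAT, which saturates a bond of retinol, rose by 0.54 in sh718 (SE 0.14, adjusted p 0.00285), a call lost without sh718 library 2 (0.39, adjusted p 0.0652). RETSAT lay at 0.36 in sh720 (adjusted p 0.119). RDH11 and DGAT1, the best counted uncalled enzymes, lay at -0.10 and 0.35 in sh718 and at -0.14 and 0.30 in sh720. The median of the list was 0.15 in sh718 and 0.30 in sh720. CYP26B1, which breaks retinoic acid down, had 1, 7 and 6 counts in sh718, sh720 and control, and LRAT, which esterifies retinol, 4, 0 and 0.

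Of 11 further receptors and carriers only FABP5, a fatty acid and retinoic acid carrier, met the count minimum. FABP5 lay at -0.27 in sh718 (edgeR adjusted p 0.129) and -0.29 in sh720 (adjusted p 0.178). At an unadjusted p under 0.05 it passed in both lines, and DESeq2 called it in neither (adjusted p 0.358 and 0.465). RARB, a receptor and classical retinoic acid target, had 0, 1 and 0 counts in sh718, sh720 and control. RBP7 had 7, 23 and 26 counts and CRABP1 1, 0 and 0.

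Genes listed as responsive to retinoic acid moved in both directions, with 6 of 24 tested. Of these, 2 rose and 1 fell in sh718, and 1 rose in sh720. These are 50% and 16.7% of the list, beside 20.4% and 6.85% of all genes. Between the hairpin lines the share was 66.7%, beside 25.3% of all genes. The lists were chosen with earlier results of these data known, so nothing is read from shares of 6 genes. GPRC5A, an orphan receptor first found by its induction with retinoic acid, had 91.9, 99.8 and 110 CPM in sh718, 48.3, 59.3 and 51.4 CPM in sh720, and 56.3, 59.8 and 64.8 CPM in control. The sh718 libraries stood above the rest, and GPRC5A rose by 0.74 there (SE 0.14, edgeR adjusted p 5.08e-05). TFF1, a mucosal trefoil peptide best known as an oestrogen target, was the only list gene called in the same direction in both hairpin lines, at 0.72 in sh718 (SE 0.07), with an adjusted p of 2.49e-12, and at 1.05 in sh720 (SE 0.07), with one of 1.68e-19. SOX9, a transcription factor of epithelial progenitors, fell by 0.82 in sh718 (SE 0.14, adjusted p 2.97e-06) and lay at -0.30 in sh720 (adjusted p 0.155). TGM2 (a transglutaminase), NRIP1 (a corepressor) and MEIS2 (a homeobox factor) were uncalled against control, at 0.06, 0.13 and 0.59 in sh718 and -0.40, -0.24 and 0.80 in sh720. The list median was 0.36 in sh718 and -0.22 in sh720, on 6 genes. TGM2 was called higher in sh718 than in sh720 (0.47, adjusted p 0.0175), but not by DESeq2 (0.115), nor without library 3 of sh718 (0.0542) or of sh720 (0.0952).

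Among receptors that pair with RXR, 5 of 13 were tested, and PPARG, the lipid-sensing receptor of fat cells, differed most clearly. PPARG had 113, 128 and 145 CPM in sh718, 434, 381 and 313 CPM in sh720, and 286, 307 and 295 CPM in control. The 3 lines did not overlap, with sh718 lowest. PPARG fell by 1.20 on the log2 scale in sh718 (SE 0.11), with an edgeR adjusted p of 3.58e-14. It rose by 0.34 in sh720 (SE 0.09), with an adjusted p of 0.0111. The rise in sh720 was lost in DESeq2 (adjusted p 0.104) and without sh720 library 1 (0.227) or 2 (0.0527) or control library 1 (0.0648). THRB, a thyroid hormone receptor, had 5.89, 3.02 and 2.12 CPM in sh718 and 14.4, 15.6 and 12.6 CPM in sh720, against 4.5, 6.77 and 8.33 CPM in control. THRB differed by -1.94 between sh718 and sh720 (SE 0.44), with an edgeR adjusted p of 0.000481, and passed in neither line against control (-0.87 in sh718, adjusted p 0.265, and 1.08 in sh720, adjusted p 0.0756). THRB had 10, 42 and 19 counts in sh718, sh720 and control, so it met the count minimum only through sh720, where it is high. Its adjusted p between the hairpin lines is therefore not read as support. Both genes lie on the short arm of chromosome 3, where tested neighbours within 5 Mb of PPARG had a median of -0.38 in sh718 (52 genes) and those of THRB -0.50 (15 genes), and 0.09 in sh720 for both. For sh718 against sh720 the medians were -0.44 around PPARG and -0.63 around THRB. The part of these neighbourhoods in the result was not tested. NR1H2 and PPARD lay at 0.02 and -0.25 in sh718 and at 0.05 and -0.22 in sh720, uncalled.

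**Figure D4:**
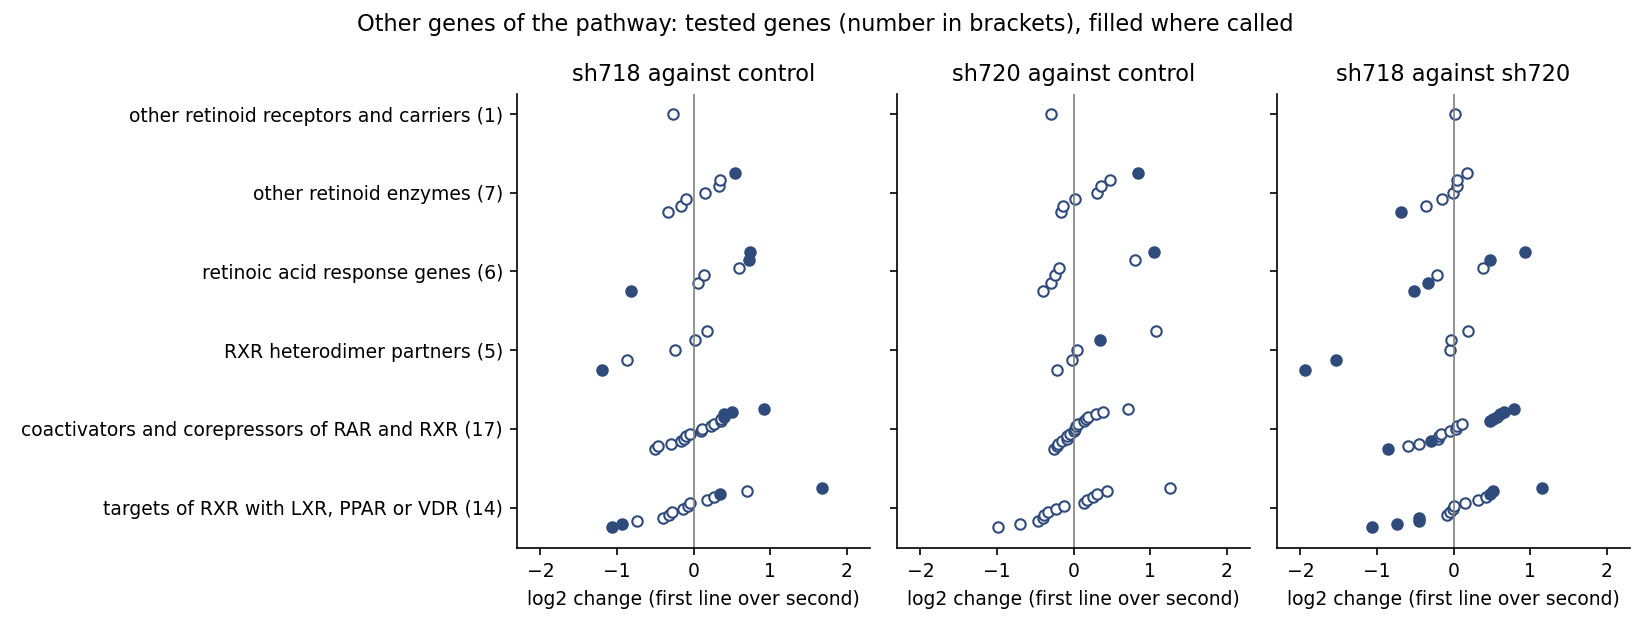
Log2 change (horizontal axis, first line over second) of every tested gene of the 6 lists of other retinoid and RXR genes, for each hairpin line against control (left and middle) and for sh718 against sh720 (right). Filled circles passed the edgeR test at an adjusted p under 0.05 and open circles did not; filled circles number 13, 3 and 21 genes in the 3 panels.

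Of 17 tested coactivators and corepressors, 4 were called in sh718, all higher, and none in sh720 by edgeR. These are 23.5% and 0% of the list, beside 20.4% and 6.85% of all genes, so the share in sh718 lies near that of all genes. Between the hairpin lines the share was 41.2%, beside 25.3% of all genes. TBL1XR1, the paralog of TBL1X, lay just outside the threshold in sh718 at -0.29 (adjusted p 0.0506), and was called lower under 5 of the 16 alternatives (adjusted p from 0.0162 to 0.215 over all 16). TBL1X, a subunit of a nuclear receptor corepressor complex, rose by 0.39 in sh718 (SE 0.12, edgeR adjusted p 0.0103), a call lost in DESeq2 (0.0752) and without control library 3 (0.0591). PRAME, a tumour antigen that represses RAR signalling, rose by 0.92 in sh718 (SE 0.25, adjusted p 0.00458), a call lost in DESeq2 (0.0545). The deacetylase gene HDAC3 rose by 0.40 (adjusted p 0.0483) and lost its call under most of the 16 alternatives, with adjusted p from 0.0235 to 0.23. NCOR1 and PRMT1 were uncalled, at 0.09 and -0.12 in sh718 and 0.29 and -0.09 in sh720. The list median was 0.11 in sh718 and 0.02 in sh720. At an unadjusted edgeR p under 0.05, 3 of the 17 passed in sh720, and DESeq2 called 0. The share of all genes at that unadjusted threshold is not given here, so nothing is read from the 3. Between the hairpin lines, sh718 was also higher than sh720 in the coactivator gene NCOA3 (0.51, adjusted p 0.00775), and lower in the acetyltransferase gene KAT2B (-0.86, adjusted p 0.035) and in TBL1XR1 (-0.29, adjusted p 0.04). DESeq2 called none of these 3 (adjusted p 0.0737, 0.183 and 0.171). The NCOA3 call was lost without sh718 library 3 or sh720 library 1. That of KAT2B was lost without sh718 library 2 (-0.50, adjusted p 0.293) or 3 or sh720 library 2 or 3, and that of TBL1XR1 without the same libraries. KAT2B lies on the short arm of chromosome 3 as well, among genes with a median of -0.36 in sh718, 0.21 in sh720 and -0.72 between the hairpin lines (19 genes). The 15 tested genes within 5 Mb of TBL1XR1 had a median of -0.29 between the hairpin lines. The part of these neighbourhoods in the results was not tested.

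Of 14 tested targets of RXR paired with LXR, PPAR or the vitamin D receptor, 2 were called higher and 2 lower in sh718, and none was called in sh720 by edgeR. These are 28.6% and 0% of the list, beside 20.4% and 6.85% of all genes. Between the hairpin lines the share was 50%, beside 25.3%. ANGPTL4, a lipase inhibitor and PPAR target, rose by 1.68 in sh718 (SE 0.52, edgeR adjusted p 0.0136), on 3, 13 and 13 counts in sh718 against 5, 1 and 3 in control. ANGPTL4 had 29, 23 and 9 counts in sh718, sh720 and control, so it met the count minimum only through the hairpin lines, where it is high. Its adjusted p is therefore not read as support, though ANGPTL4 is among the 2 targets called higher in sh718. FABP4, another PPAR target, fell by 1.07 (SE 0.35, adjusted p 0.0204), with 8, 10 and 6 counts in sh718 against 13, 16 and 23 in control. The sterol regulator SREBF1, an LXR target, fell by 0.93 (SE 0.33, adjusted p 0.035), and HADHA, a fatty acid oxidation enzyme, rose by 0.34 (SE 0.10, adjusted p 0.00618). DESeq2 called neither ANGPTL4 (0.116), FABP4 (0.156) nor SREBF1 (0.157), and HADHA was lost without sh718 library 2 (0.0555). ANGPTL4 was also lost without library 2 or 3 of sh718 or of control (0.0604 to 0.0884), and FABP4 without sh718 library 3 (0.104) or control library 3 (0.116). SREBF1 was lost without control library 1 (0.0543) or 2 (0.148), and without sh718 library 2, where its change was -0.56 (adjusted p 0.282). FABP4 neighbours on chromosome 8 within 5 Mb had a median of -0.31 in sh718 (19 genes), and the part of that neighbourhood in the result was not tested. SCD, a fatty acid desaturase gene, was uncalled, at -0.08 in sh718 and -0.23 in sh720. At an unadjusted edgeR p under 0.05, 7 of the 14 passed in sh720. The share of all genes at that threshold is not given here, so nothing is read from this count. DESeq2 called 0 of the 14 in sh720, with no adjusted p for 5. Between the hairpin lines, sh718 was higher than sh720 in the fatty acid synthase gene FASN (0.51, adjusted p 0.00238) and in MYLIP, which marks the LDL receptor for breakdown (1.15, adjusted p 0.0265). It was lower in CPT1A (-0.45, adjusted p 0.00433) and ACADVL (-0.45, adjusted p 0.0105), enzymes of fatty acid oxidation, and in the sterol exporter gene ABCG1 (-0.74, adjusted p 0.0307). Of these 5, DESeq2 called FASN (0.028) and CPT1A (0.0454). The MYLIP call was lost without sh718 library 1 or 2 or sh720 library 2 or 3, that of ABCG1 without sh718 library 1 or 3 or sh720 library 2 or 3, and that of ACADVL without sh718 library 3.

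The nearest tested genes on either side of RXRA, RBP4, CRABP2, ALDH1A3 and DHRS3 were looked up. None beside CRABP2, ALDH1A3 or DHRS3 was called by edgeR in the same comparison and direction as its member, and none beside RXRA or RBP4 was called higher in either hairpin line against control. WDR5, 157 kb before RXRA, lay at 0.08 in sh718 and -0.06 in sh720, and COL5A1, 201 kb after it, at 0.57 and 0.02 (edgeR adjusted p 0.218 and 0.983). CEP55, 62.6 kb from RBP4, fell in sh718 by 0.55 (edgeR adjusted p 0.0299), a fall not called by DESeq2 (adjusted p 0.181). It lay at -0.01 in sh720. FRA10AC1, on the other side of RBP4, lay at 0.05 and -0.05. NES, 22.2 kb from CRABP2, rose in sh718 by 0.61 (adjusted p 4.94e-05), where CRABP2 was uncalled, and lay at -0.24 in sh720 (adjusted p 0.324). ISG20L2 on the other side lay at 0.39 and 0.14. The neighbours of ALDH1A3, AC015712.6 and LRRK1, and of DHRS3, VPS13D and PRDM2, were uncalled in all 3 comparisons. Tested genes within 5 Mb of RXRA had a median of 0.15 in sh718 and -0.06 in sh720 (79 genes), and those of RBP4 0.01 and -0.04 (42 genes). What part position has in the changes of the members was not tested.

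The genes whose pattern lay closest to that of RXRA, by the root mean square difference of centred log2 CPM over the 9 libraries, were SPTLC3, GAREM1, H4C3, TFF1 and PGK1. SPTLC3, which encodes a subunit of serine palmitoyltransferase, differed by 0.191 and lay at 1.27 in sh718 and 1.19 in sh720. GAREM1, an adaptor of growth factor receptors, differed by 0.226 and lay at 1.58 and 1.49 on 27, 27 and 9 counts in sh718, sh720 and control. GAREM1 met the count minimum only through the hairpin lines, where it is high. The histone gene H4C3 (0.270), TFF1 (0.292) and the glycolytic gene PGK1 (0.300) had smaller changes, from 0.66 to 1.05. The measure orders genes by their values alone, and the comparisons with control share its libraries.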

How the data were processed

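Single-end RNA-seq reads of 75 bases were available as raw counts per gene, deposited by the authors for 9 libraries in 3 lines. Trim Galore and the GRCh38 build are named in the submitters' processing notes. For the aligner, the counting tool, its strand setting and the gene annotation, the sources used here give nothing. Totals of 883663 to 1108960 counts per library limit the precision for low genes.

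From these counts, 1 model of the 3 lines was fitted to all 9 libraries with edgeR 4.0.16 (quasi-likelihood test, TMM scaling, R 4.3.3). Genes entered when their summed count per line had a mean of 20 or more, which left 9556 genes, and library sizes were the counts in those genes. P-values were adjusted with the Benjamini-Hochberg method over all of them, and an adjusted p under 0.05 was called. CPM values and intervals of the fitted changes come from the same model. The common biological coefficient of variation was 5.89%. Shares and ratios of counts have exact intervals at the 95% level that cover counting error only. Gene positions and merged exon lengths came from GENCODE 29 (GRCh38), promoter windows from RefSeq (GRCh38.p14). The procedure was tested on simulated data.

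The members and gene lists were chosen with earlier results of these data known. Genes named from a list were those called in the same direction in both hairpin lines, up to 4 called per direction and comparison with the lowest adjusted p, and up to 2 uncalled ones with the highest counts. Single values of a few genes that this rule would name are not reported here. The alternatives tried were DESeq2 1.42.0, other scaling and count minima, nuclear genes only, only the lines compared, a block for the library number, and leaving out each library.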

Additional observations from a re-analysis of the deposited data

Results flagged for a closer look

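Among the named genes called against control in at least one hairpin line, those given here also differed between the hairpin lines, in the direct test of sh718 against sh720 (edgeR quasi-likelihood test, Benjamini-Hochberg adjusted p under 0.05). These hairpins are directed at the same gene, and CTHRC1 itself was at 1.55% of control in sh718 and 13.7% in sh720.

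Of the retinoid genes, ALDH1A3 differed by -0.41 on the log2 scale (lower in 3 of 3 sh718 libraries than in any sh720 library) and DHRS3 by 0.42, with libraries that overlapped. Of the enzymes, RDH10 differed by -0.68, where tested genes within 5 Mb had a median of -0.41. Of the retinoic acid response genes, TFF1 differed by -0.33 although it rose in both lines, GPRC5A by 0.93 and SOX9 by -0.52. The SOX9 call was lost without sh720 library 2 (adjusted p 0.0604).

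PPARG differed by -1.54, with sh718 below control and sh720 above it, where tested genes within 5 Mb had a median of -0.44 between the hairpin lines. Of the coregulators, PRAME differed by 0.79, TBL1X by 0.66 and HDAC3 by 0.61. The PRAME call was lost in DESeq2 (adjusted p 0.0916) and without sh720 library 1 (0.0569). Of the targets of RXR with other partners, HADHA differed by 0.47 and SREBF1 by -1.07, a call lost in DESeq2 (adjusted p 0.0669) and without sh718 library 2 (0.128) or sh720 library 2 (0.0934). What these differences come from was not tested.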

How the results depend on the processing

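Over the 16 alternatives, values of the 6 members with a test kept their side of the threshold in 275 cases, lost a call in 9 and gained one in 2. For the pathway genes these numbers were 1592, 69 and 14. No called value changed sign, while uncalled values took the other sign in 8 cases among the members (RARA, RARG and DHRS3) and 31 among the pathway genes. With DESeq2, 7 pathway genes were called in sh718 against control in place of 13, and 12 between sh718 and sh720 in place of 21. Calls fell over all genes tested as well, to 10.5% in place of 20.4% in sh718 against control. They fell to 3.12% in place of 6.85% in sh720 against control, and to 13.5% in place of 25.3% between the lines. DESeq2 called 1 member in sh718 against control in place of 2, and 0 in sh720 in place of 1. Leaving out 1 library at a time gave 8 to 14 pathway genes and 0 to 3 members in sh718 against control, and 0 to 1 members in sh720. The 8 came without sh718 library 2, the 0 in sh718 without control library 3 and the 0 in sh720 without control library 2. Without sh718 library 1 or 3 or control library 2, 1 member was called in sh718. Correlations of same-numbered libraries across lines lay between -0.0127 and 0.0219, and those of differently numbered ones between -0.0434 and 0.0413. The numbers thus showed no sign of a pairing, which does not exclude one. The fitted log2 difference of RBP4, given with no test, was 6.35 in sh718 and 7.09 in sh720 without control library 2, which held the only control counts so that these values depend on the prior count, and 3.07 and 3.81 without control library 3. With the library number as a replicate block, 2 members were called in sh718 and 1 in sh720 against control and 2 between the lines, with 13, 3 and 22 pathway genes. Shares of all genes called with the block, or with a library left out, are not given here. Nothing is therefore read from the counts of calls under these settings. RXRA, RARA, RARG and RBP4 rest on 83 to 208 counts over all libraries, and depth limits what can be seen in them.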
